A study of Homo sapiens with 12 samples.

Results

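The genes described here are 56 cytosolic ribosomal protein genes, 36 of the large (60S) subunit and 20 of the small (40S) subunit, taken by symbol from a list given for this work and not by their values. They are 56 of 25343 genes in the deposited count table, and all 56 passed the filter on low counts that left 14199 genes for testing. The libraries come from SW48, a colorectal carcinoma line, and OVK18, an ovarian carcinoma line, both known for microsatellite instability and both expressing Cas9 in every group, controls included. Cells were harvested 72 h after transduction with a guide RNA: sgCh2-2, used here as the control guide, or sgWRN2 or sgWRN3, which target WRN, a RecQ helicase gene. Each of the 6 combinations of line and guide had 2 libraries, replicates A and B. The labels do not say whether A and B are separate cultures, so p-values measure only the spread between these libraries, which may be technical.

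Ribosomal proteins assemble with ribosomal RNA in the nucleolus into the 40S and 60S subunits, which join to translate mRNA. Their mRNAs are among the most abundant in dividing cells, and many begin with a 5′ terminal oligopyrimidine (TOP) tract, a C at the first base followed by further C and T, through which mTOR and LARP1 control their translation. Several free ribosomal proteins, RPL5 and RPL11 above all, bind MDM2 when ribosome assembly is disturbed and so stabilise p53. Counts show the level of the mRNA and not its translation.

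The start of the mRNA was read for 46 of the 56 members from RefSeq promoter windows of GRCh38.p14, while the submitters' processing notes give hg19 for the counts. RPL5, RPL7, RPL8, RPL23, RPL23A, RPL30, RPL37, RPS2, RPS15A and RPS20 were not read. A C at the annotated start with at least 4 further C or T was present in 35 of the 46 (76.1%), against 5.14% of 27305 genes with a window. In the related gene lists described below it ran from 8.96% (mitochondrial ribosomal proteins) to 90.9% (translation factors and related TOP mRNAs). In the members the tract was 6 to 16 bases long with a median of 8, longest in RPL7A. The windows below show 10 bases before the start and 20 from it, with the tract in capitals. RPS24, RPL22, RPL11, RPL26, RPS6 and RPLP0 are shown because their values are given by library below, RPL7A for the longest tract, RPL22L1 as the paralog of RPL22, and RPL15 and RPL9 as members whose annotated start has no such tract.
RPS24: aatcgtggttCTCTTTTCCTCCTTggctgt
RPL22: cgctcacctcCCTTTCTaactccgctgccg
RPL22L1: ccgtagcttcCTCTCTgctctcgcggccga
RPL11: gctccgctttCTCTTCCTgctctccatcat
RPL26: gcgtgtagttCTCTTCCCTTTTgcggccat
RPS6: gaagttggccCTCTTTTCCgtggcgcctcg
RPLP0: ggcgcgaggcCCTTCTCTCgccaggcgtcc
RPL7A: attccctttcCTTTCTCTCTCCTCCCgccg
RPL15: tggggcctgctggaggagcttcacgcagtc
RPL9: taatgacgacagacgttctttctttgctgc

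On GRCh38.p14 these windows lie at chr10:78033853-78033882 (plus strand) for RPS24, chr1:6199576-6199605 (minus) for RPL22, chr3:170870176-170870205 (minus) for RPL22L1, chr1:23691796-23691825 (plus) for RPL11 and chr17:8383174-8383203 (minus) for RPL26. RPS6 lies at chr9:19380217-19380246 (minus), RPLP0 at chr12:120201092-120201121 (minus), RPL7A at chr9:133348208-133348237 (plus), RPL15 at chr3:23916535-23916564 (plus) and RPL9 at chr4:39458903-39458932 (minus). Each spans the last bases upstream of the gene and the first bases of its 5′ UTR. The hexamer CCGGAA, a core shared by ETS-family sites, was found on either strand of the 300-base window in 63% of the 46 members and in 20.1% of all genes. GATGGC, a YY1 core, was found in 32.6% and 15.4%, and the TATA box letters TATAAA in 8.7% and 14%. Neither core was particular to the members. In the related gene lists described below, CCGGAA ran from 30% (host RNAs of small nucleolar RNAs) to 80% (ribosomal protein paralogs), with 62.7% in mitochondrial ribosomal proteins. GATGGC ran there from 20% to 46.3%, highest in mitochondrial ribosomal proteins.

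Library totals ran from 15423162 to 32581625 gene counts. WRN itself had 91.2 and 112 CPM (counts scaled to a common library size with TMM factors) in the SW48 controls and 34.1 to 56.9 CPM in the 4 libraries with a WRN guide, a log2 fold change of -1.27 (SE 0.13, edgeR quasi-likelihood adjusted p = 0.00409). In OVK18 it had 32.0 and 39.8 CPM against 21.0 to 23.0, a log2 fold change of -0.71 (SE 0.14, edgeR adjusted p = 0.206). An edit need not lower the mRNA, so this is a partial check of the labels. Of 8 intestinal markers, 7 were detected in SW48, with CDX1 at 0 and a summed level of 212 to 254 CPM. In OVK18 5 had counts, with a sum of 0.131 to 0.372 CPM. Of 8 Müllerian and ovarian markers, 7 were detected in OVK18, with WFDC2 at 0 and a sum of 74.3 to 81.7 CPM. In SW48 all 8 had counts, with a sum of 103 to 119 CPM, so this list was not higher in OVK18. OVK18 also held 7 of 8 fibroblast markers at a sum of 410 to 481 CPM, with THY1 at 0. In SW48 4 had counts, with a sum of 0.324 to 0.577 CPM.

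Members took 4.37% to 5.08% of all gene counts in the SW48 libraries and 3.51% to 3.92% in OVK18. In SW48 sgCh2-2 replicates A and B gave 4.77% and 4.37%, sgWRN2 gave 5.03% and 5.08%, and sgWRN3 gave 5.06% and 4.80%. All 4 libraries with a WRN guide were therefore above both controls. In OVK18 the same libraries gave 3.82% and 3.51%, 3.6% and 3.92%, and 3.86% and 3.58%, and the groups overlapped.

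**Figure D1:**
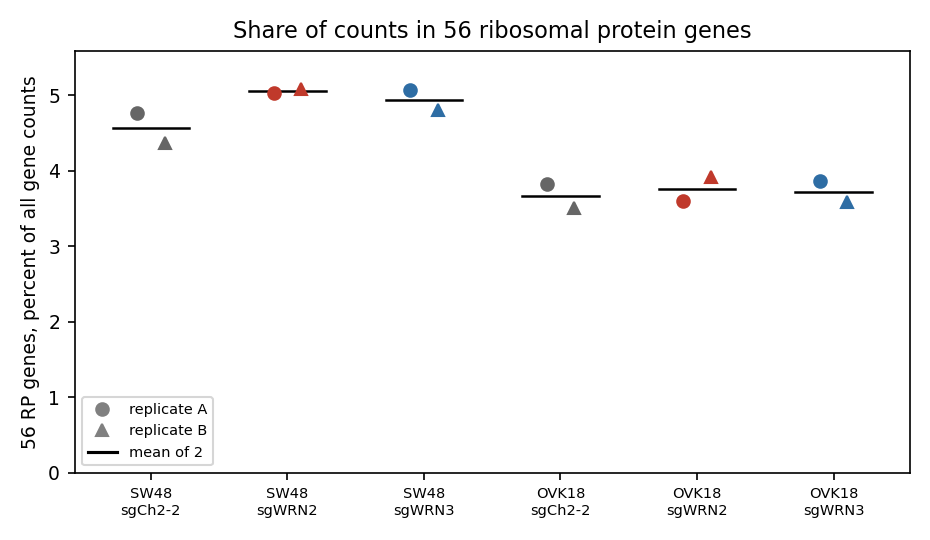
Percent of all gene counts that fell in the 56 ribosomal protein genes (vertical axis) for the 12 libraries by line and guide; circles are replicate A, triangles replicate B and bars the mean of 2. The SW48 libraries with a WRN guide sit between 4.80% and 5.08%, above the SW48 controls at 4.77% and 4.37%, while the OVK18 groups overlap.

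Per unit length the members were expressed at very different levels. In the SW48 controls the median of 55 members was 1246 FPKM, against 10.2 FPKM over 11968 genes with a mean of at least 1 FPKM, and in the OVK18 controls it was 1001 against 10.01 FPKM. RPL26, which binds MDM2 and the p53 mRNA, was highest in SW48 at 3003 ± 36.5 FPKM (SD, n = 2), followed by RPS24, a small-subunit protein mutated in Diamond-Blackfan anaemia, at 2870 ± 197 FPKM. RPS24 led in OVK18 at 2375 ± 9.15 FPKM. The lowest in FPKM were RPL22 at 156 ± 1.98 FPKM in SW48 and RPL13 at 107 ± 17.8 FPKM in OVK18. By counts RPL13 was above RPL22 in the OVK18 controls, at 435 against 188 CPM, with transcript lengths of 712 and 693 bases. The low FPKM of RPL13 is therefore uncertain, as is that of RPL27A, with 751 CPM but 169 FPKM in the SW48 controls. With that limit, the highest and the lowest FPKM differed 19.3-fold in SW48 and 22.3-fold in OVK18. The FPKM order was nearly the same in both lines (Spearman's rho 0.96 across 55 genes, which share 4 libraries). RPS18 is listed at 0 FPKM in all 12 libraries although it had at least 18110 counts in each, so it was left out of these levels. RPS10, which carries ubiquitin marks on stalled ribosomes, had only 9.16 to 17.4 CPM, against 467 to 631 FPKM in the control means. It shares its locus with the read-through gene RPS10-NUDT3, which had 0 counts, so its count is uncertain. Pseudogenes named after the member are annotated for 55 of the 56 members, with a median of 9.5 and up to 91 for RPL23A. Reads may be split with these copies.

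With the WRN guides, the ribosomal protein mRNAs of SW48 lay slightly above the control as a group, and none passed the test on its own. The fitted log2 fold change with both guides was above 0 for 54 of the 56 members, where 50.8% of all genes were above 0. The median was 0.14, a 1.098-fold difference, against 0.00 over all genes tested. The median was 0.14 for the 36 large-subunit and 0.14 for the 20 small-subunit members, so neither subunit led. In edgeR's quasi-likelihood test 0 of 56 passed an adjusted p of 0.05, where 0.866% of all genes did (123 genes, 36 higher and 87 lower). At an unadjusted p under 0.05, 12 members lay higher, where 3.44% of all genes did, and RPL22 lay lower, where 4.4% did. DESeq2 and limma-voom also called 0. In 21 of the 56 members all 4 guide libraries were above both controls, where 6.01% of all genes were, and in 0 were all 4 below, where 5.33% were. The spread of the fold changes among members, an SD of 0.081, was about the size of their median standard error of 0.089.

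RPS24 had the largest difference of the 56. Its level was 1608 and 1563 CPM in the sgCh2-2 libraries, 2095 and 1876 CPM under sgWRN2 and 1688 and 2117 CPM under sgWRN3. Every guide library was above both controls, with a log2 fold change of 0.29 (SE 0.10, edgeR adjusted p = 0.346). RPL9, a core large-subunit protein, had 574 and 566 CPM in the controls and 614 to 722 CPM in the guide libraries (log2 fold change 0.23, SE 0.08, edgeR adjusted p = 0.396). RPS15A, of the small subunit, had 448 and 424 CPM against 486 to 530 CPM (0.23, SE 0.09, edgeR adjusted p = 0.489). Both groups of libraries were again apart for these genes.

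The 4 members named for binding MDM2 were all above 0 in SW48, as were 54 of all 56 members. RPL5, which with RPL11 carries the 5S ribosomal RNA into the large subunit, had 1563 and 1586 CPM in the sgCh2-2 libraries, 1976 and 1753 CPM under sgWRN2 and 1676 and 1923 CPM under sgWRN3. Its groups did not overlap, and its log2 fold change was 0.22 (SE 0.09, edgeR adjusted p = 0.523). RPL11 had 922 and 852 CPM in the controls, 1097 and 998 CPM with sgWRN2, and 960 and 879 CPM with sgWRN3, which overlapped the controls (0.15, SE 0.08, edgeR adjusted p = 0.759). RPL23 had 1138 and 1093 CPM against 1198 to 1478 CPM (0.21, SE 0.08, edgeR adjusted p = 0.490). RPL26 had 810 and 852 CPM against 873 to 1012 CPM (0.17, SE 0.08, edgeR adjusted p = 0.664). In OVK18 these 4 had log2 fold changes of -0.00, 0.03, 0.03 and -0.03, in the order RPL5, RPL11, RPL23 and RPL26.

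Other members with a role outside the ribosome's core followed the same range. RPS6, the substrate of the S6 kinases below mTOR, had 2073 and 2022 CPM in the sgCh2-2 libraries, 2541 and 2300 CPM under sgWRN2 and 2202 and 2177 CPM under sgWRN3 in SW48. The groups were apart and the log2 fold change was 0.17 (SE 0.07, edgeR adjusted p = 0.604). RPS27A, translated as a fusion of ubiquitin and a small-subunit protein, had 527 and 572 CPM against 551 to 657 CPM, which overlap (0.10, SE 0.09, edgeR adjusted p = 0.937). RPLP0, the base of the stalk that receives the translation factors, had 1338 and 1057 CPM against 1019 to 1372 CPM, also overlapping (0.04, SE 0.14, edgeR adjusted p = 0.9999). Its stalk partners RPLP1 and RPLP2 had log2 fold changes of 0.04 and 0.07. RPS2, of the mRNA entry side of the small subunit, was near 0 as well at 0.03 (SE 0.22), with 1142 and 784 CPM in its controls.

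**Figure D2:**
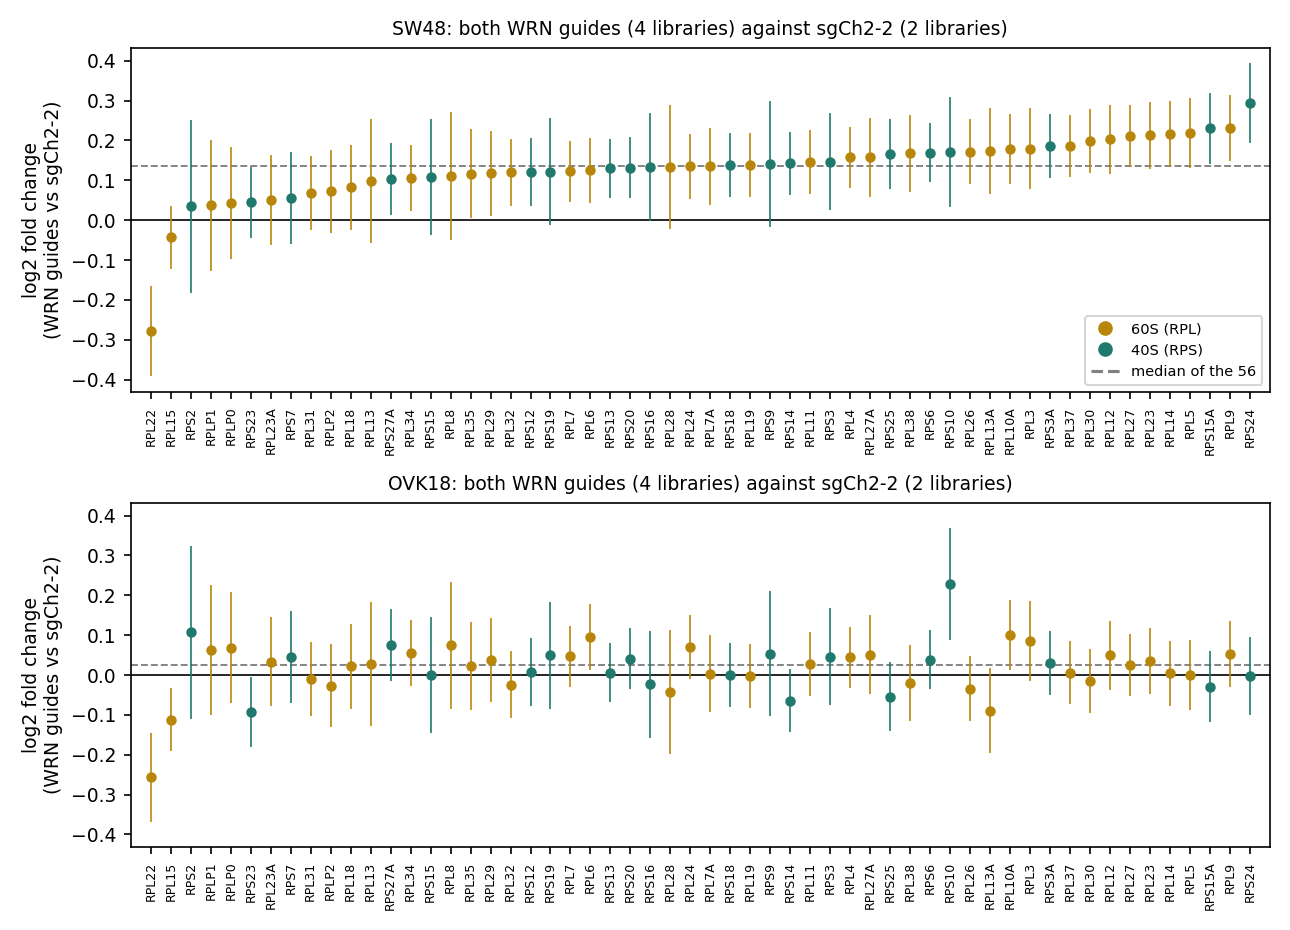
Log2 fold change of each of the 56 members with both WRN guides against sgCh2-2 (vertical axis), with bars of 1 standard error, in SW48 (top) and OVK18 (bottom); genes stand in the order of their SW48 value, gold for RPL and green for RPS genes, and the dashed line is the median. In SW48 54 of 56 points are above 0 around a median of 0.14, in OVK18 38 are above 0 around a median of 0.03, and RPL22 is lowest in both.

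The size of the group's shift in SW48 depended on single control libraries. Without SW48 sgCh2-2 replicate B the median was 0.07, with 39 of 56 members above 0, and without its replicate A it was 0.20, with 51 above 0. With an offset for GC content in each library, a setting added after the data were seen, edgeR called RPL5, RPL14, RPL26 and RPS24 higher, where 1.8% of all genes were, around a median of 0.12.

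The 2 guides gave the same direction in SW48, and their comparisons share the control libraries. With sgWRN2 the median was 0.18 with 54 of 56 above 0, where 53.3% of all genes were. With sgWRN3 it was 0.09 with 53 above 0, where 46.6% were. In FPKM the sgWRN2 median was 0.10, where the median over all genes was -0.04, against 0.02 over all genes in the main fit. Single libraries moved both: the sgWRN2 median was 0.10 with 42 above 0 without SW48 sgCh2-2 replicate B. The sgWRN3 median was 0.036 with 34 above 0 without SW48 sgWRN3 replicate A, 0.058 without SW48 sgCh2-2 replicate B, 0.14 without SW48 sgWRN3 replicate B and 0.18 without SW48 sgCh2-2 replicate A. Neither guide alone had a member past an adjusted p of 0.05 in edgeR, where 3.08% of all genes were called with sgWRN2 and 0 with sgWRN3. At an unadjusted p under 0.05, sgWRN2 had 16 members above the control, where 6.74% of all genes were, and 1 below it, where 6.39% were. For sgWRN3 these were 4 above, against 1.08%, and 0 below, against 0.768%. DESeq2 called 4 members with sgWRN2: RPL23, RPS3A and RPS6 were higher, where 2.23% of all genes were, and RPL22 was lower, where 2.87% were. With the GC offset edgeR called 12 with sgWRN2, 11 higher, where 5.31% of all genes were, and RPL22 lower, where 5.88% were. Compared with each other, sgWRN2 minus sgWRN3 had a median of 0.07, and edgeR called 0 members, where 0.944% of all genes were called. At an unadjusted p under 0.05, RPL22 lay lower, where 4.43% of all genes did.

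RPL22 had the lowest log2 fold change of the 56 members with both guides in each line, -0.28 in SW48 and -0.26 in OVK18. This large-subunit protein is not needed for translation as such, binds cellular and viral RNAs, and is recurrently mutated at a coding repeat in tumours with microsatellite instability. In SW48 it had 142 and 162 CPM in the sgCh2-2 libraries, 116 and 102 CPM under sgWRN2 and 139 and 148 CPM under sgWRN3. In OVK18 it had 199 and 178 CPM, then 152 and 120 CPM, then 172 and 194 CPM. In each line both sgWRN2 libraries were below both controls, as were those of 17.2% of all genes in SW48 and 21.4% in OVK18. The sgWRN3 libraries overlapped the controls.

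With sgWRN2 the log2 fold change of RPL22 was -0.47 (SE 0.13) in SW48 and -0.47 (SE 0.13) in OVK18, a 0.72-fold level in both. It did not pass the threshold in edgeR's quasi-likelihood test in either line, with an adjusted p of 0.0862 in SW48 and 0.137 in OVK18. With sgWRN3 it was -0.08 (SE 0.13, edgeR adjusted p = 1) in SW48 and -0.05 (SE 0.13, edgeR adjusted p = 1) in OVK18. The difference between the guides was -0.39 (SE 0.13, edgeR adjusted p = 0.318) in SW48 and -0.42 (SE 0.13, edgeR adjusted p = 0.166) in OVK18. Over 28 alternative settings the adjusted p of the sgWRN2 value ran from 0.00413 to 0.447 in SW48 and from 0.00453 to 0.544 in OVK18, with the value below 0 in all of them. In OVK18 the value was -0.29 without sgWRN2 replicate B and -0.63 without sgWRN2 replicate A. In SW48 it ran from -0.60 to -0.40 leaving out single libraries, and it passed the threshold without OVK18 sgWRN2 replicate A (edgeR adjusted p = 0.0369) or B (edgeR adjusted p = 0.0255). In FPKM the difference was smaller, -0.20 in SW48 and -0.19 in OVK18.

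RPL22L1, the paralog that can take the place of RPL22 in the ribosome, had 385 and 448 CPM in the sgCh2-2 libraries, 372 and 340 CPM under sgWRN2 and 384 and 475 CPM under sgWRN3 in SW48. In OVK18 it had 684 and 666 CPM, then 706 and 594 CPM, then 625 and 758 CPM. The sgWRN2 libraries of SW48 were below their controls and those of OVK18 overlapped theirs, with log2 fold changes of -0.23 (SE 0.14, edgeR adjusted p = 0.559) and -0.05 (SE 0.14, edgeR adjusted p = 0.923). RPS27L, a p53-responsive paralog of RPS27, had 112 and 138 CPM in the SW48 controls and 180 and 151 CPM with sgWRN2 (log2 fold change 0.41, SE 0.16, edgeR adjusted p = 0.267).

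**Figure D3:**
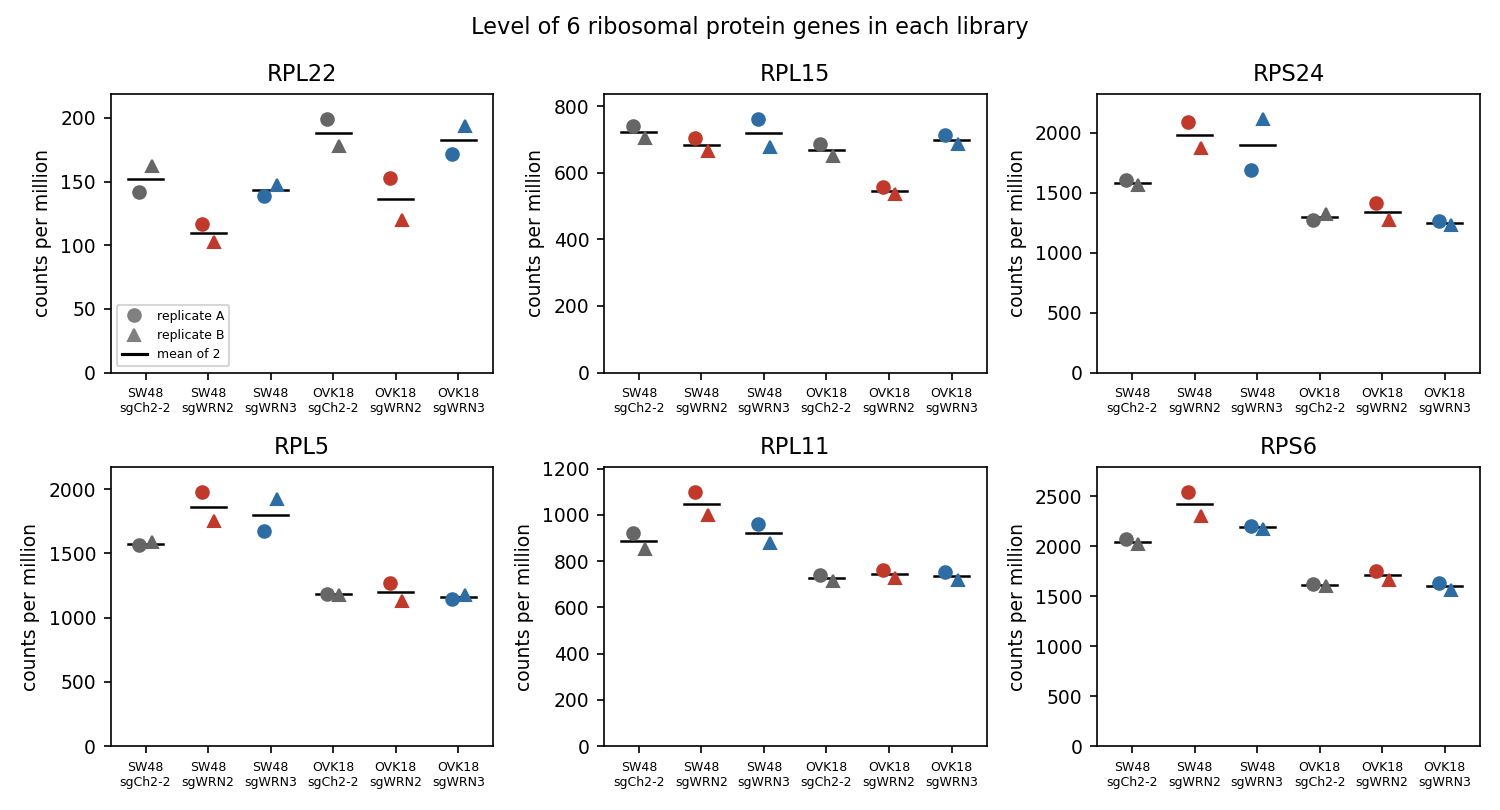
CPM (vertical axes, from 0) of RPL22, RPL15, RPS24, RPL5, RPL11 and RPS6 in the 12 libraries by line and guide; circles are replicate A, triangles replicate B and bars the mean of 2. RPL22 with sgWRN2 is below both controls in both lines (116 and 102 CPM in SW48, 152 and 120 CPM in OVK18). Of all genes, 17.2% in SW48 and 21.4% in OVK18 are so placed. The SW48 libraries with a WRN guide are above both controls for RPS24, RPL5 and RPS6, where 6.01% of all genes are.

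In OVK18 the members stayed near the control level. With both guides 38 of 56 had a log2 fold change above 0, where 48.9% of all genes did, with a median of 0.03 against 0.00 over all genes. In edgeR 0 of 56 passed an adjusted p of 0.05, where 0.0282% of all genes did, and at an unadjusted p under 0.05 RPL22 lay lower, where 2.32% of all genes did, and 0 members lay higher, where 1.72% did. DESeq2 and limma-voom called 0 as well. All 4 guide libraries were above both controls in 1 member, RPL10A (669.9 and 670.2 CPM against 695 to 766 CPM), where 2.9% of all genes were so placed. Without OVK18 sgCh2-2 replicate B the median turned to -0.03, with 19 members above 0. It was 0.08 without OVK18 sgCh2-2 replicate A, 0.046 without sgWRN3 replicate B, 0.0069 without sgWRN2 replicate B and 0.0012 without sgWRN3 replicate A.

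Below RPL22 (-0.26, SE 0.11, edgeR adjusted p = 1) and then RPL15, the lowest OVK18 values with both guides were those of RPS23, at the decoding centre of the small subunit (-0.09, SE 0.09), and RPL13A, also known from the GAIT complex (-0.09, SE 0.11). The highest were RPS10 (0.23, SE 0.14), whose count is uncertain, RPS2 (0.11, SE 0.22), RPL10A (0.10, SE 0.09) and RPL6 (0.09, SE 0.08). RPL15, a large-subunit protein mutated in Diamond-Blackfan anaemia, had unlike values with the guides, without passing the test between them. It had 685.7 and 649 CPM in the sgCh2-2 libraries, 556 and 535 CPM under sgWRN2 and 712 and 686.2 CPM under sgWRN3. The sgWRN2 libraries were below both controls, where 21.4% of all genes were. The sgWRN3 libraries were above both, replicate B only narrowly, where 9.53% were. The sgWRN2 value was -0.29 (SE 0.09, edgeR adjusted p = 0.186), and sgWRN2 minus sgWRN3 was -0.36 (SE 0.09, edgeR adjusted p = 0.103). In FPKM the sgWRN2 value was -0.14. In SW48 RPL15 had 741 and 704 CPM with sgCh2-2 and 703 and 665 CPM with sgWRN2, a log2 fold change of -0.08 (SE 0.09).

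With sgWRN2 alone in OVK18 the median over members was 0.03 and edgeR called 0, where 0.796% of all genes were called. At an unadjusted p under 0.05, RPL22 and RPL15 lay lower, where 8.11% of all genes did, and 0 members higher, where 5.79% did. With the GC offset edgeR called RPL13A, RPL15 and RPL22 lower, where 6.25% of all genes were. With sgWRN3 alone the median was 0.02, edgeR called 0 of the members and 0 of all genes, and 0 members had an unadjusted p under 0.05, where 0.817% of all genes did. These medians changed sign with single libraries. Without OVK18 sgCh2-2 replicate B the sgWRN3 median was -0.058 with 9 members above 0 and the sgWRN2 median -0.0079 with 27 above 0. Without OVK18 sgWRN3 replicate A the sgWRN3 median was -0.044 with 14 above 0, and without OVK18 sgCh2-2 replicate A the medians were 0.073 for sgWRN3 and 0.12 for sgWRN2. Between the guides edgeR called 0 members, where 0.747% of all genes were called, and RPL22 and RPL15 lay lower at an unadjusted p under 0.05, where 8.25% of all genes did.

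The difference of the WRN-guide effect between the lines, SW48 minus OVK18, was tested directly. It was above 0 for 51 of 56 members with a median of 0.11, where 50.8% of all genes were above 0. Single libraries moved the median from 0.042 with 34 above 0 (without OVK18 sgCh2-2 replicate A) to 0.18 with 52 above 0 (without SW48 sgCh2-2 replicate A). It was 0.056 with 36 above 0 without SW48 sgCh2-2 replicate B, 0.07 without SW48 sgWRN3 replicate A and 0.17 without OVK18 sgCh2-2 replicate B. In edgeR 0 of 56 passed an adjusted p of 0.05, where 0.0282% of all genes did, 0 had an unadjusted p under 0.05, where 2.75% did, and DESeq2 called 0. The largest differences were those of RPS24 (0.30, SE 0.14), RPL13A (0.26, SE 0.15) and RPS15A (0.26, SE 0.13), and the lowest that of RPS2 (-0.07, SE 0.31). So a larger response in SW48 was not established for any single member.

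The members with and without a TOP tract at the annotated start had like values. This division rests on the annotated start base alone, and the real start of the mRNA was not read. In the RPL9 window a run of C and T lies a few bases after that base, so the set without the tract may hold TOP mRNAs. With both guides in SW48 the 35 with the tract had a median of 0.14, with 34 above 0, and the 11 without it a median of 0.14, with 10 above 0. In OVK18 the medians were 0.02 and 0.04. The difference between these sets was not tested. RPS24 and RPL9, the members with the highest values in SW48, fall on opposite sides of this division, as the windows above show, and so do RPL22 and RPL15, the lowest.

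Other genes of the translation machinery were read from lists. Of 24 further cytosolic ribosomal protein genes 23 were tested, with 0 called, a median of 0.10 and 21 above 0 in SW48, and 0 called with a median of 0.03 in OVK18. Among them RPL41, the smallest large-subunit protein, had 151 and 150 CPM in the OVK18 controls and 104 to 128 CPM with the WRN guides (log2 fold change -0.31, SE 0.10, edgeR adjusted p = 1). Of 18 translation factors and related TOP mRNAs 0 were called in SW48, with a median of 0.16 and 17 above 0, led by EIF4B (0.22, SE 0.08, edgeR adjusted p = 0.337), a factor of the eIF4F helicase. Of 12 host RNAs of small nucleolar RNAs 0 were called, with a median of 0.10 in SW48. Genes that build the ribosome were nearer to 0: 59 ribosome biogenesis genes had a median of 0.03 and 19 genes of ribosomal RNA synthesis and the MYC family also 0.03, with 0 called in either. Mitochondrial ribosomal proteins had a median of -0.01, with 33 of 74 above 0 and 0 called. In OVK18 edgeR called 0 of the genes of each of these lists, with medians of 0.02 for the translation factors, -0.01 for the host RNAs, 0.03 for biogenesis, -0.01 for ribosomal RNA synthesis and 0.00 for the mitochondrial proteins. The OVK18 biogenesis value pools guides of opposite sign. With sgWRN2 its median was 0.12 with 54 of 59 above 0, where 48.1% of all genes were. With sgWRN3 it was -0.03 with 17 above 0, where 49.7% were, and edgeR called 0 with either guide.

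Of 23 regulators of TOP mRNAs and mTOR signalling 0 were called in either line. Of 8 genes of the MDM2 and p53 circuit 3 rose in SW48 and 0 fell, namely CDKN1A, MDM2 and PLK2. CDKN1A, the cell cycle inhibitor p21, went from 412 and 326 CPM to between 519 and 1008 CPM (log2 fold change 1.04, SE 0.12, edgeR adjusted p = 0.00507). MDM2, the ubiquitin ligase of p53, went from 472 and 480 CPM to between 642 and 1084 CPM (0.76, SE 0.13, edgeR adjusted p = 0.0218). The guides differed in size: CDKN1A had 1.40 with sgWRN2 and 0.67 with sgWRN3 (difference 0.73, SE 0.14, edgeR adjusted p = 0.0281). MDM2 had 1.03 and 0.48 (difference 0.54, SE 0.15, edgeR adjusted p = 0.162). With sgWRN3 alone in SW48 edgeR called 0 of the 8, as of all genes. In OVK18 edgeR called 0 of the 8 with both guides, while PLK2 passed with sgWRN2 alone (1.02, SE 0.11, edgeR adjusted p = 0.00174). The members that bind MDM2 thus differed by at most 0.22 on the log2 scale in the same SW48 libraries, without passing the test.

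The lines themselves differed more than the guides. Between the controls, SW48 minus OVK18, edgeR's test called 28 members higher and 2 lower in SW48, where 33.9% of all genes were called higher and 34.7% lower. The median was 0.28 (1.22-fold) against 0.00 over all genes. RPS18, at the head of the small subunit, had 1933 and 1770 CPM in SW48 and 1053 and 952 CPM in OVK18 (log2 difference 0.89, SE 0.09, edgeR adjusted p = 3.2e-06). RPS15 had 325 and 250 CPM against 179 and 141 CPM (0.84, SE 0.17, edgeR adjusted p = 0.000683), and RPL35 had 455 and 368 CPM against 251 and 221 CPM (0.80, SE 0.13, edgeR adjusted p = 0.000125). The members that were lower in SW48 were RPS23, with 606 and 634 CPM against 923 and 844 CPM (-0.51, SE 0.10, edgeR adjusted p = 0.000751), and RPS20, with 489 and 468 CPM against 666 and 630.5 CPM (-0.44, SE 0.09, edgeR adjusted p = 0.000788). RPL22 was next at -0.31 (SE 0.13, edgeR adjusted p = 0.0511), with its SW48 and OVK18 controls apart.

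The same contrast ran the other way for the paralogs that were tested. Of 7 listed paralogs 5 passed the filter on low counts. All 5 were called lower in SW48, where 34.7% of all genes were: RPL7L1, RPL22L1, RPL26L1, RPL39L and RPS27L. The log2 differences were -0.38 for RPL7L1, -0.70 for RPL22L1, -0.76 for RPL26L1 and -0.77 for RPS27L. RPL39L had 9.75 and 9.82 CPM in OVK18 and at most 0.121 CPM in any SW48 library. It passed the filter only through OVK18, so its direction was fixed beforehand. The GC content and markers of the lines moved with this contrast: the mean transcript GC weighted by CPM was 48.2% ± 0.57 (SD, n = 2) in the SW48 controls and 47.4% ± 0.35 in OVK18, and the fibroblast markers differed as given above. Their part in it was not tested. In bulk RNA, a change in the make-up of the cells and a change in RNA per cell cannot be told apart.

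**Figure D4:**
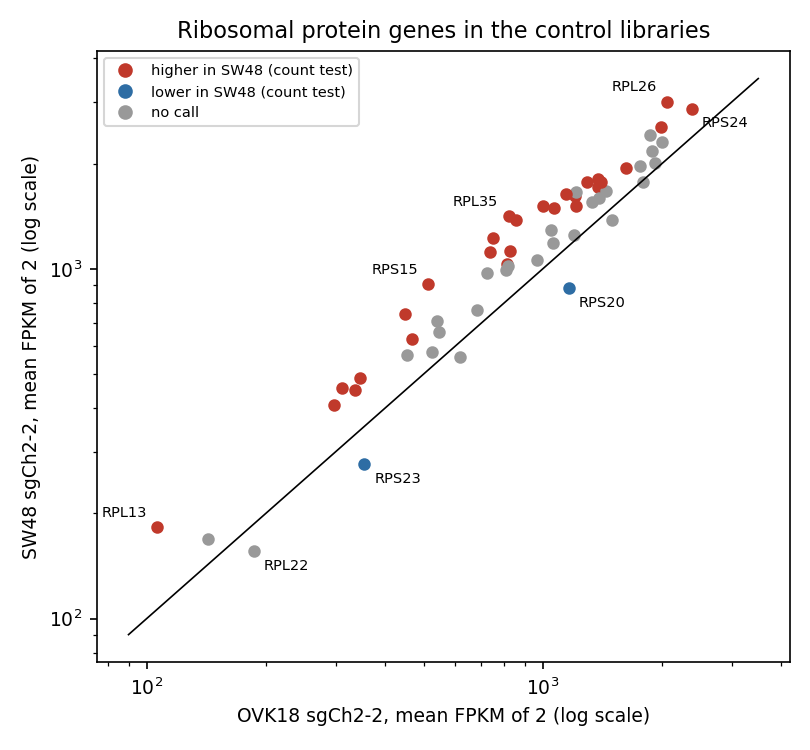
Mean FPKM of 2 control libraries in SW48 (vertical, log scale) against OVK18 (horizontal, log scale) for 55 members, RPS18 being listed at 0; the line marks equal values, and red and blue mark members called higher or lower in SW48 by the count test. Most points lie above the line, with RPS20 and RPS23 below it.

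The replicate letters had to be read apart, because GC content differed between them. In the members, whose transcripts span 42.7% to 62.2% GC with a median of 51.0%, replicate B was below A in the median of every group: by log2 ratios of -0.12 (sgCh2-2), -0.08 (sgWRN2) and -0.07 (sgWRN3) in SW48, and -0.12, -0.01 and -0.09 in OVK18. For sgCh2-2 and sgWRN3 the GC-rich members were the ones lower in B. Across the 56 members the ratio of B over A had Pearson's r with GC content of -0.74 and -0.70 in SW48 and -0.73 and -0.76 in OVK18 for these groups. For sgWRN2 the sign was the opposite in both lines, 0.60 in SW48 and 0.69 in OVK18. These values describe pairs of libraries, with all 56 points of a value sharing the same 2 libraries.

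RPS2, at 59.2% GC, shows the size of it. Its log2 ratio of B over A was -0.54 and -0.54 with sgCh2-2 in SW48 and OVK18, -0.51 and -0.43 with sgWRN3, and 0.34 and 0.45 with sgWRN2. RPL8, the member with the highest GC content at 62.2%, had -0.45 and -0.30 with sgCh2-2 and 0.08 and 0.27 with sgWRN2. For RPL9, the lowest at 42.7%, the sgCh2-2 ratios were small (-0.02 in SW48, -0.11 in OVK18). Its SW48 sgWRN3 ratio was 0.23. In size, the median ratio of the 14 most GC-rich members exceeded that of the 14 most GC-poor, except in SW48 sgWRN2. There the GC-rich median was 0.06, against -0.14 for the GC-poor members. In SW48 sgCh2-2 these medians were -0.31 and 0.02. The standard errors in SW48, fitted over both guides, were 0.22 for RPS2, 0.16 for RPL8 and 0.08 for RPL9.

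**Figure D5:**
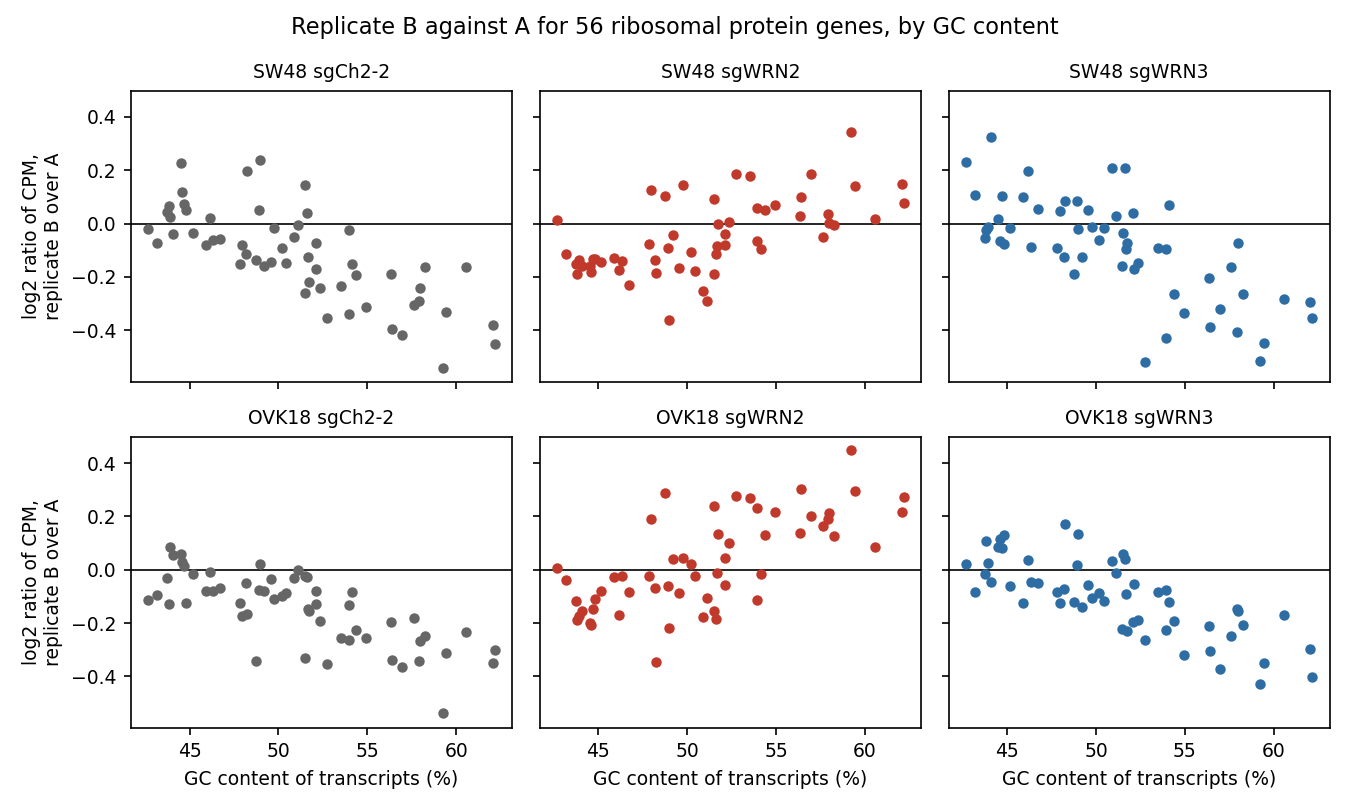
Log2 ratio of CPM in replicate B over A (vertical axis) against the GC content of the member's transcripts in percent (horizontal axis), 1 panel for each line and guide, 1 point for each of 56 members. The points fall with GC content for sgCh2-2 and sgWRN3 and rise with it for sgWRN2, in both lines.

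A test of B minus A with all libraries called 0 members and 0 of all genes in either line, with 0 members at an unadjusted p under 0.05, where 4.78% of all genes were in SW48 and 3.11% in OVK18. Its lowest values were RPL8 (-0.24, SE 0.14), RPS2 (-0.24, SE 0.22) and RPLP0 (-0.24, SE 0.12) in SW48 and RPL28 (-0.18, SE 0.15), RPS2 (-0.17, SE 0.22), RPL8 (-0.14, SE 0.14) and RPS15 (-0.14, SE 0.14) in OVK18. Its highest were RPL9 (0.08, SE 0.08), RPS25 (0.05, SE 0.09) and RPS24 (0.04, SE 0.10) in SW48, and RPL26 (-0.02, SE 0.08), RPL31 (-0.02, SE 0.10) and RPS3A (-0.02, SE 0.08) in OVK18. Without the sgWRN2 libraries, 21 members were lower in B in SW48, where 17.8% of all genes were, and 22 in OVK18, where 11.8% were, with 0 members higher in either.

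Set against the control of the same letter, the SW48 members were above 0 in both letters of both guides. With sgWRN2 the median log2 ratio was 0.16 in A (41 of 56 above 0) and 0.21 in B (51 above 0), and with sgWRN3 it was 0.08 in A (54 above 0) and 0.11 in B (44 above 0). In OVK18 the sgWRN2 medians were -0.06 in A (22 above 0) and 0.09 in B (39 above 0), so the letters disagreed in sign, and the sgWRN3 medians were 0.01 and 0.04 (33 and 42 above 0). RPL22 with sgWRN2 was below its control in all 4 such pairs, which follows from its place below both controls given above. The ratios were -0.28 in A and -0.67 in B in SW48 and -0.39 in A and -0.57 in B in OVK18. It was the lowest of the 56 in 3 of these pairs, and RPS2 was lower in SW48 replicate A. Across the 56 members, which share the libraries compared, the fold changes with both guides had Pearson's r with GC content of -0.19 and Spearman's rho of -0.32 in SW48, and 0.11 and 0.068 in OVK18. With sgWRN2 alone in SW48 these were -0.20 and -0.43, so the GC-poor members tended to have the higher values there.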

How the data were processed

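RNA was measured in 12 libraries: total RNA purified with a Qiagen kit and prepared with a Roche Kapa mRNA kit, per the labels' protocols. The authors deposited a table of gene counts and a table of FPKM values (counts scaled by transcript length and library size). The submitters' processing notes name bcl2fastq 2.18, STAR 2.5, Cufflinks 2.2.1 and build hg19, and the counting settings, strand included, are not given in the sources used here. The 92 spike-in features had 0 counts and were left out.

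Counts were tested with edgeR 4.0.16 in R 4.3.3: TMM scaling, the filter filterByExpr over 6 groups, robust quasi-likelihood fits of all 12 libraries leaving 6 residual degrees of freedom, with p-values adjusted by Benjamini-Hochberg over 14199 genes with a threshold of 0.05. The letters were contrasted in a fit with a letter term within each line and 4 residual degrees of freedom. A standard error is the fold change divided by the root of F. Ratios of single libraries used CPM + 0.1. GC content and length came from GENCODE v29 transcripts. limma 3.58.1 and DESeq2 1.42.0 gave alternatives, as did other scalings, filters, the FPKM values with pseudocounts of 1 and 0.1, a replicate block, a GC offset and leaving out each library. The fits were tested on simulated data.

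Named by rule were 8 members with known roles, members past the threshold, the 4 highest and lowest members per line with both guides, the 3 highest and lowest for letters and for lines, and up to 4 genes of other lists by p. RPL13, RPLP2, RPL14, RPS3A as a call of other settings, and the sequences shown were chosen after values were seen, as were the GC offset and the crossed replicate block. The members and lists were chosen with earlier results of these data known.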

Additional observations from a re-analysis of the deposited data

How the results depend on the processing

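Members called went from 0 with both guides in SW48 to 4 with the GC offset, 6 with the GC offset and replicate block, and 1 without the sgWRN2 libraries with replicate block. Under these settings 1.8%, 2.06% and 0.479% of all genes were called higher and 3.03%, 3.42% and 0.584% lower. For sgWRN2 in SW48, 0 became 1 with library size alone, upper quartile scaling or no filter, 4 with DESeq2, 12 with the GC offset, 12 with that offset and the block, and 0 to 1 leaving out single libraries. Of all genes, the GC offset called 5.31% higher and 5.88% lower there, and 5.9% and 6.49% with the block. Library size alone called 1.12% higher and 2.54% lower, upper quartile scaling 1.18% and 2.21%, no filter 1.33% and 2.12%, and DESeq2 2.23% and 2.87%. For sgWRN3 in SW48, 0 became 1 without the sgWRN2 libraries and with the block, where 0.479% of all genes were called higher and 0.584% lower. For sgWRN2 in OVK18, 0 became 1 with no filter, where 0.941% of all genes were called higher and 1.26% lower. It became 3 with the GC offset and 3 with offset and block, where 6.25% and 7.45% of all genes were called lower. For sgWRN2 minus sgWRN3, 0 became 1 and 1 in SW48 under those offsets. There 2.05% and 2.2% of all genes were called higher and 2.99% and 3.23% lower. In OVK18 0 became 1 under DESeq2, where 2.64% of all genes were called higher and 1.89% lower. Under the offsets it became 3 and 3 in OVK18. These 3 of 56 were lower, where 6.85% and 8.57% of all genes were, so they are near or below the background. Between the lines, 30 became 47 (42 higher, 5 lower) without the sgWRN2 libraries and with the block, where 39.4% of all genes were called higher and 40.2% lower. The count ran from 20 to 31 leaving out single libraries, lowest without OVK18 sgCh2-2 replicate B. B minus A went from 0 to 21 in SW48 and 22 in OVK18 without the sgWRN2 libraries, where 17.8% and 11.8% of all genes were called lower.

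The labels do not say what a replicate letter shares. Differences between letters correlated across 9560 genes at r of 0.54 to 0.61 among the sgCh2-2 and sgWRN3 groups of both lines and at 0.57 between the sgWRN2 groups. Each sgWRN2 group correlated with the other groups at -0.63 to -0.23, so same-lettered libraries did not deviate together in every pair and the letters were not taken as a pairing. The replicate block alone called 0 members with both guides in SW48, around a median of 0.14. Exchanging the letters of the sgWRN2 libraries in the block gave 1 member with both guides in SW48. Of all genes, 1.7% were called higher and 3.11% lower there. With sgWRN2 it gave 4 members in SW48, where 5.25% of all genes were called higher and 5.73% lower. In OVK18 it gave 2 with sgWRN2, where 5.08% and 7.61% were. For sgWRN2 minus sgWRN3 it gave 1 in SW48, where 2.23% of all genes were higher and 2.77% lower. In OVK18 this contrast gave 2, where 5.25% and 7.35% were.

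The SW48 median with both guides ran from 0.07 to 0.20 and the OVK18 median from -0.03 to 0.08 leaving out single libraries. RPL22 with sgWRN3 ran from -0.18 to 0.024 in SW48, above 0 without SW48 sgCh2-2 replicate B. In OVK18 it ran from -0.16 to 0.0325, above 0 without OVK18 sgWRN3 replicate A or OVK18 sgCh2-2 replicate A (0.02).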
